A study of Mus musculus with 10 samples.

Results

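The Notch pathway genes described here are 10 genes that encode ligands, receptors and target transcription factors of Notch signalling. They were chosen by symbol among the 32285 genes counted in each library and were followed across cell classes of the aged mouse inner ear. The ligands are Jag1, Jag2 and Dll1, the receptors are Notch1, Notch2 and Notch3, and the targets are Hes1, Hes5, Hey1 and Hey2. A further 46 genes of the pathway, among them the fringe glycosyltransferases, the receptor proteases and the nuclear cofactors, are described by their counts.

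Notch signalling passes between neighbouring cells. A membrane-bound ligand on one cell binds a receptor on the next, the receptor is cut by ADAM proteases and γ-secretase, and its intracellular domain joins the DNA-binding protein RBPJ to switch on repressor genes of the HES and HEY families. In the developing inner ear this exchange sets the mosaic of sensory hair cells (HCs) and supporting cells (SCs), with HCs presenting ligands and the surrounding SCs carrying the receptor. Jag1 also marks the prosensory region and stays in SCs. RBPJ binds the core sequence TGGGAA, and such sites are well known upstream of HES and HEY genes.

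Promoter sequences of 3 of the genes are shown, those of 2 targets with the RBPJ core and that of a ligand without it. Each is the 250 bases before a RefSeq start on GRCm38.p6, written 5′ to 3′ on the strand of the gene, with TGGGAA or its reverse complement TTCCCA in capitals. The Hes5 window lies at chr4:154960673-154960922 on the plus strand and holds 2 matches, which begin 226 and 82 bases before the start. The Hey2 window lies at chr10:30842784-30843033 on the minus strand and holds 1 match, beginning 207 bases before the start. The window of the more upstream Dll1 start lies at chr17:15376933-15377182 on the minus strand and holds 0 matches. The core occurred on either strand in 7094 of 32851 windows of the same length (21.6%), and in 2 of the 8 genes found in the table, so a match is a description of the letters and no evidence of binding. Hes1 and Hey1 were not in the table.
Hes5: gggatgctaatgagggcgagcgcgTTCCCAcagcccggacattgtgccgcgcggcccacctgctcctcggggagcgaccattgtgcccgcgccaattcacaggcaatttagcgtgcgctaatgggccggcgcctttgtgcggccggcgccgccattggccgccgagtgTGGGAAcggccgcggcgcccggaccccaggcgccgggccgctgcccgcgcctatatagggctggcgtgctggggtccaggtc
Hey2: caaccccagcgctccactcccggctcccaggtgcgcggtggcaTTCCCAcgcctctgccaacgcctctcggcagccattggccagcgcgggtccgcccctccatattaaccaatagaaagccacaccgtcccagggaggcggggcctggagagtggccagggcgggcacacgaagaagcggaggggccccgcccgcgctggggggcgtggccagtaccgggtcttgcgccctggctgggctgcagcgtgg
Dll1: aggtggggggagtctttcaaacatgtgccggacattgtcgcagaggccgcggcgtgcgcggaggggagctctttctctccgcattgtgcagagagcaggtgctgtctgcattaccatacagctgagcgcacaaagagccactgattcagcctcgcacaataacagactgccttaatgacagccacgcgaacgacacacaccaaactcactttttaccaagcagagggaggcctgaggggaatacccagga

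The data are single-cell RNA sequencing libraries of the cochlear and the vestibular sensory epithelium of wild-type CBA/J mice aged 22 months, 5 of each organ and no treated group. Every library pooled several mice, so the spread is between pools, and younger mice were not analysed here. The counts are of unique molecular identifiers (UMIs) from the 3′ end of transcripts, and a level is given as UMIs of a gene per 1000000 UMIs of a class in a library (CPM), which is not scaled by gene length and was therefore not compared between genes. A lower level in a class can come from less RNA of that gene per cell or from fewer cells carrying it.

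Replicate 2 held the same cells as replicate 1. Of its barcodes, 100% in the cochlea and 99.5% in the vestibule were also in replicate 1, while no other pair of libraries shared more than 41 barcodes. Their counts differed by less than the sampling noise, so the pair was counted as 1 sample and n was 4 per organ. The deposited libraries held 1130 to 12397 barcodes and 2592425 to 26974948 UMIs, and after filtering 7272 cochlear and 10424 vestibular cells remained in the 4 samples of each organ. Replicate 3 supplied 69.7% of the cochlear and 52.2% of the vestibular cells.

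Classes were rebuilt by clustering without any of the Notch pathway genes and named from marker genes that hold none of them, so a class name here stands for an HC-like or SC-like cluster. There were 2002 vestibular HCs (vHCs; 212, 973, 492 and 325 in replicates 1, 3, 4 and 5) and 557 vestibular SCs (vSCs), and 153 cochlear HCs (cHCs; 26, 81, 14 and 32) and 1129 cochlear SCs (cSCs). The summed level of 6 HC markers was 2901 to 3495 CPM in vHCs and 326 to 433 CPM in vSCs, and 3809 to 4232 CPM in cHCs against 156 to 196 CPM in cSCs. The 10 SC markers summed to 5904 to 8469 CPM in vSCs and 253 to 317 CPM in vHCs, and to 1695 to 2085 CPM in cSCs against 95.2 to 242 CPM in cHCs. The 6 macrophage markers stayed at or below 24.6 CPM in all of these classes, while the 6 erythroid markers reached 24600 CPM in one library of vSCs and 7195 CPM in one of cHCs, and their part in the results was not tested. A further 275 vestibular and 69 cochlear cells carried HC and SC markers together at median depths of 11337 and 15664 UMIs. They were set aside, since doublets and HCs with RNA of neighbours cannot be told apart in them.

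In the vestibule the ligands Jag2 and Dll1 were higher in vHCs, and the receptor Notch1, the ligand Jag1 and the targets Hes1, Hey1 and Hey2 were higher in vSCs. The comparison asks which of the genes differ between HCs and SCs within the same libraries, and signalling itself was not measured. Of the 10 genes, 7 passed the filter on low counts, which keeps a gene that is high in only 1 class, and all 7 passed the test, 5 higher in vSCs and 2 higher in vHCs. Of all 9271 genes tested, 58.2% passed it, 28.4% higher and 29.8% lower in vSCs (edgeR quasi-likelihood test, Benjamini-Hochberg adjusted p below 0.05). Every adjusted p below is from this test over all genes, and errors of fold changes are standard errors.

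**Figure D1:**
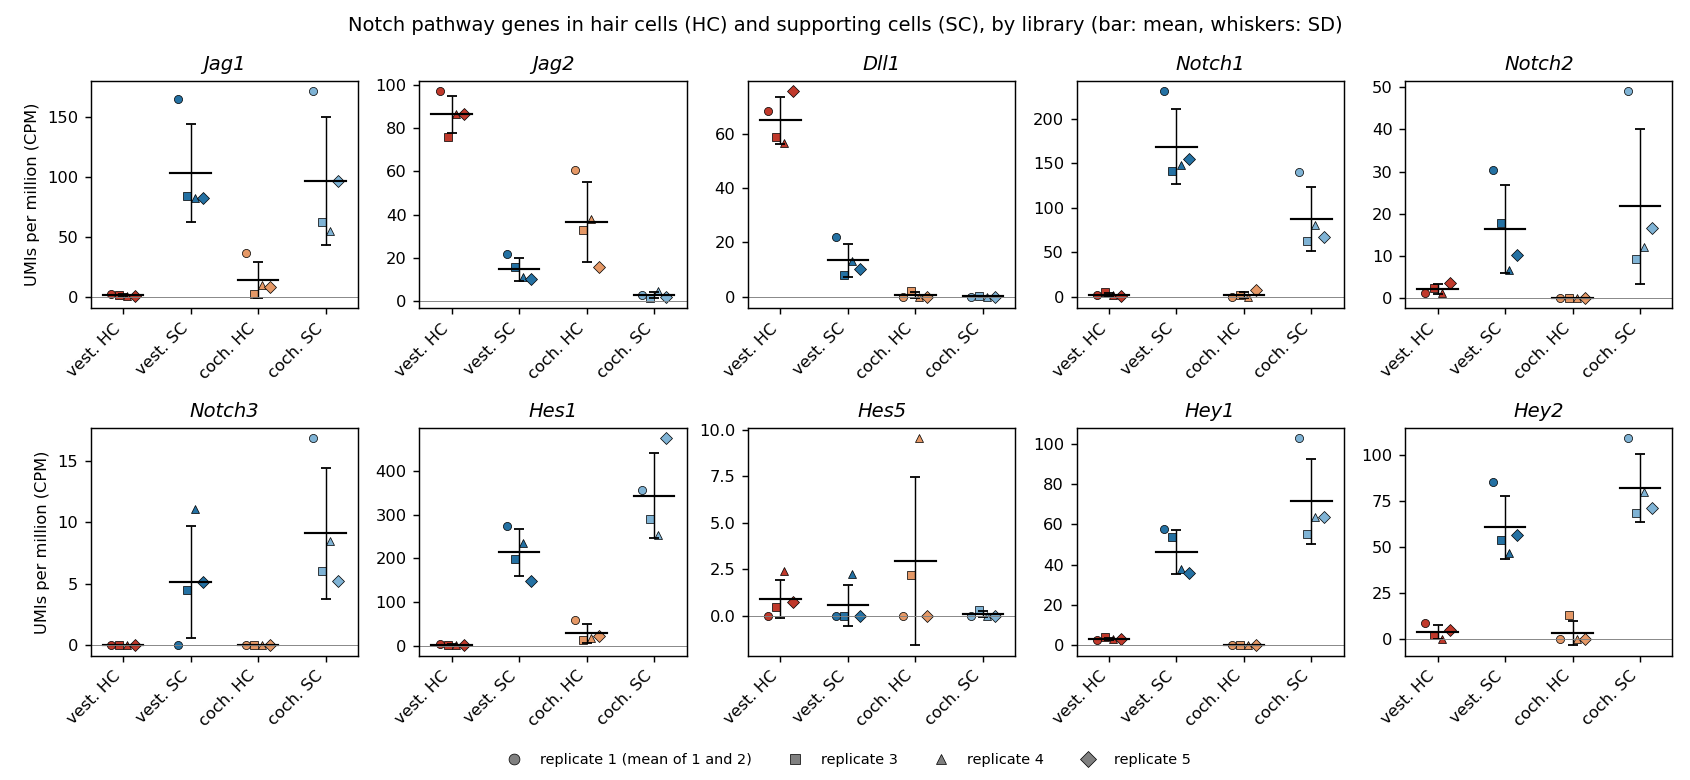
Level of each of the 10 genes (y axis, CPM) in vestibular (vest.) and cochlear (coch.) hair cells (HC) and supporting cells (SC). Each point is 1 library, the bar is the mean of 4 and the whiskers are the SD. Jag2 and Dll1 in vestibular hair cells sit above every supporting cell library, while Jag1, Notch1, Hes1, Hey1 and Hey2 in supporting cells sit above every hair cell library of the same organ, and Hes5 stays at or below 9.52 CPM throughout.

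Jag2 (chr12:112907819-112929776, minus strand) encodes Jagged2, a ligand of developing HCs. Its level in vHCs was 96.9, 76.0, 86.2 and 86.5 CPM in replicates 1, 3, 4 and 5, and in vSCs it was 22.0, 15.7, 11.1 and 10.3 CPM. All 4 vHC values lay above all 4 vSC values, and the difference of vSCs from vHCs was −2.31 ± 0.24 on the log2 scale (4.97-fold lower, adjusted p = 1.92e-08). Dll1 (chr17:15367354-15376872, minus strand) encodes Delta-like 1, the other ligand of HCs. It stood at 68.7, 58.8, 56.9 and 75.7 CPM in vHCs and at 22.0, 7.83, 13.3 and 10.3 CPM in vSCs. Again the classes did not overlap, and the log2 difference was −2.21 ± 0.29 (4.64-fold lower, adjusted p = 4.48e-07).

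Jag1 (chr2:137081456-137116644, minus strand) went the other way. Its level was 164.9, 83.9, 82.1 and 82.4 CPM in vSCs and 2.45, 1.23, 0.599 and 0.715 CPM in vHCs. Replicate 1 stood alone at the top of the vSC values, the others lay within 2 CPM of each other, and the log2 difference was 6.50 ± 0.35 (adjusted p = 2.21e-13). Jag1 and Jag2, both Jagged ligands, were thus highest in opposite classes.

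Notch1 (chr2:26457903-26516663, minus strand), the receptor most studied in the inner ear, was measured at 230.9, 142, 148.6 and 154.6 CPM in vSCs and at 2.45, 5.17, 1.80 and 1.43 CPM in vHCs. No vHC library came near a vSC library, and the log2 difference was 5.71 ± 0.28 (adjusted p = 4.88e-14). Notch2 (chr3:98013527-98150361, plus strand) was sparse, with 32 UMIs in vSCs and 18 in vHCs, or 16.3 ± 10.4 against 2.11 ± 1.14 CPM (SD, n = 4). Notch3 (chr17:32120820-32166852, minus strand), better known from vascular mural cells, had 10 UMIs in vSCs and 0 in vHCs, at least 13.9-fold higher in vSCs against a floor of 3 UMIs over all vHCs. Both receptors fell below the filter. A fit of all genes without it called both higher in vSCs (adjusted p = 1.91e-07 and 4.10e-06), but such low counts rest on few molecules.

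The targets Hes1, Hey1 and Hey2 were, like Notch1 and Jag1, higher in vSCs than in vHCs. Hes1 (chr16:30064384-30067796, plus strand), a repressor that many signals besides Notch can induce, stood at 274.9, 197.9, 235.1 and 149.4 CPM in vSCs and between 2.86 and 4.91 CPM in vHCs. The log2 difference was 5.96 ± 0.24 (adjusted p = 3.95e-15). Hey1 (chr3:8663359-8667256, minus strand) reached 57.7, 53.7, 37.7 and 36.1 CPM in vSCs against 2.45 to 3.94 CPM in vHCs, a log2 difference of 3.95 ± 0.31 (adjusted p = 9.92e-11). Hey2 (chr10:30832359-30842801, minus strand) reached 85.2, 53.7, 46.6 and 56.7 CPM in vSCs against 0 to 8.58 CPM in vHCs, a difference of 4.41 ± 0.41 (adjusted p = 2.13e-09). For each of these targets every vSC library lay above every vHC library. Hes5 (chr4:154960923-154962371, plus strand), a strong Notch target of the embryonic ear and brain, had 1 UMI in vSCs and 7 in vHCs, so at this depth no difference was detectable.

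Counted per cell, a Jag2 UMI was found in 25.3% of 2002 vHCs (median depth 3794 UMIs) and in 1.65% of 364 vestibular macrophages (2846 UMIs), a class that should lack the ligand. Dll1 was found in 18.8% of vHCs and in 0 of 364 macrophages, which allows a share of up to 0.824%. Among vSCs (2163 UMIs), Notch1 was found in 32.5%, Jag1 in 22.8%, Hes1 in 33.6%, Hey1 in 13.8% and Hey2 in 15.6% of cells. The macrophage shares for these genes were 11.5%, 1.37%, 3.30%, 0.824% and 0.275%. After every cell was thinned to 1000 UMIs, Jag2 and Dll1 were found in 6.99% and 6.04% of vHCs, and Notch1, Jag1 and Hes1 in 12.9%, 9.16% and 14.9% of vSCs. The thinned macrophage shares of these 3 genes were 3.02%, 0.824% and 1.65%, and that of Jag2 was 0.549%. In 116 vHCs UMIs of both ligands were found, 391 had Jag2 without Dll1, 260 had Dll1 without Jag2 and 1235 had neither, a split that depth also sets.

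**Figure D2:**
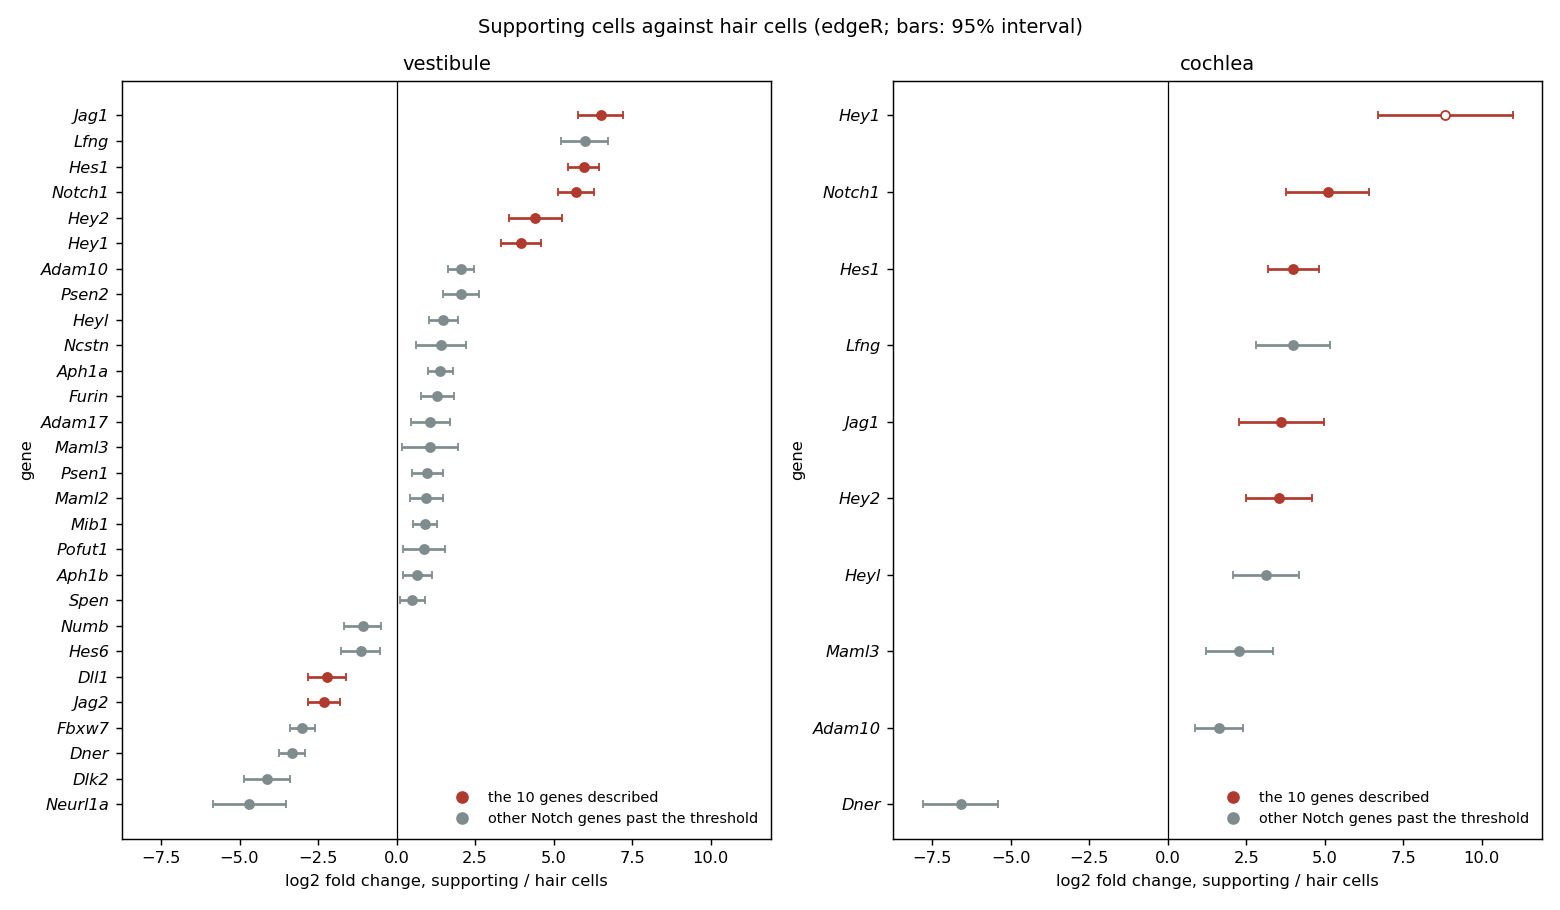
Log2 fold change of supporting cells over hair cells (x axis) for each of the Notch pathway genes past the threshold in the vestibule and in the cochlea, with 95% intervals from edgeR. Red points are the 10 genes described and grey points other genes of the pathway; the open point is cochlear Hey1, whose fitted value has hair cells at 0 UMIs and is no bound. In the vestibule Jag1, Hes1 and Notch1 lie near 6 with Lfng, and Jag2 and Dll1 lie near −2.

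Of the other 46 pathway genes, 31 were tested in the vestibule, 15 were higher and 6 lower in vSCs, beside 28.4% higher and 29.8% lower over all genes, with a median log2 difference of 0.37 against −0.07 over all genes tested. Lfng, the fringe glycosyltransferase that alters which ligands a Notch receptor answers to, was higher in vSCs (106.5 against 1.95 CPM, 63.9-fold in the fit, adjusted p = 1.52e-12). Of 9 genes for receptor cleavage all were tested and 8 were higher in vSCs, led by the protease Adam10 (2.05 ± 0.19, adjusted p = 3.35e-09) and the presenilin Psen2 (2.05 ± 0.28, adjusted p = 1.04e-06). Lower in vSCs were Dlk2 (−4.12 ± 0.35, adjusted p = 5.58e-10) and Dner (−3.33 ± 0.20, adjusted p = 1.98e-12), both non-canonical ligands. Neurl1a, an E3 ligase of ligand endocytosis, had 2 UMIs in vSCs and 249 in vHCs, a ratio of 0.0336 with an exact 95% interval of 0.00404 to 0.122. Intervals of ratios and shares here cover counting error only. Where the set-aside cells were counted as vHCs, the log2 differences shrank to 2.38 for Notch1, 2.11 for Jag1, 2.499 for Hes1, 2.05 for Hey1 and 2.23 for Hey2, and all 7 calls were kept.

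In the cochlea Notch1, Jag1, Hes1, Hey1 and Hey2 were also higher in SCs, while Dll1 and Hes5 had at most 2 UMIs in either class. Of the 10 genes, 5 passed the filter and all 5 were higher in cSCs than in cHCs. These 5 had at most 17 UMIs in cHCs and passed the filter through their cSC libraries. Jag2, higher in cHCs, fell below it, so the shared direction was partly set by the filter. Among all 6904 genes tested, 43.8% were called, 23.4% higher and 20.5% lower in cSCs. The cHCs held 771549 UMIs in all, so a single UMI weighed more here than in the vestibule.

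Hes1 was measured at 356.7, 290, 253.4 and 473.1 CPM in cSCs and at 60.5, 15.4, 19.1 and 23.5 CPM in cHCs. The ranges were far apart, with a log2 difference of 4.00 ± 0.39 (adjusted p = 1.90e-07). A Hes1 UMI was found in 8 of the 153 cHCs, all of them inner hair cells, so the cHC values rest on few cells. Hey1 was at 102.6, 55.3, 63.8 and 63.6 CPM in cSCs and at 0 in all 4 cHC libraries, at least 16.3-fold higher against the floor of 3 UMIs (adjusted p = 4.45e-06). Hey2 was at 108.7, 68.3, 79.8 and 70.9 CPM in cSCs, and its 6 UMIs in cHCs all came from replicate 3 (3.54 ± 0.50, adjusted p = 1.51e-05). The size of this difference rests on that library, since without it cHCs are at 0 UMIs and the fitted value is 8.45, which is no bound.

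Notch1 stood at 140.9, 62.9, 80.7 and 67.7 CPM in cSCs and had 2 UMIs in cHCs, a ratio of pooled levels of 29.2 with an interval of 8.03 to 242 (adjusted p = 3.39e-06). Jag1 stood at 171.5, 62.3, 54.4 and 96.9 CPM in cSCs and at 36.3, 2.19, 9.52 and 7.82 CPM in cHCs. Replicate 1 was the highest library in both classes, the classes did not overlap, and the difference was 3.62 ± 0.64 (adjusted p = 0.000164). With the set-aside cells counted as cHCs, the differences fell to 1.16 for Jag1 (adjusted p = 0.0387), 1.29 for Hes1, 1.85 for Notch1, 2.55 for Hey2 and 3.29 for Hey1.

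Jag2 had 26 UMIs in cHCs, at 60.5, 32.9, 38.1 and 15.6 CPM, and 14 in cSCs, at 3.06, 1.58, 4.69 and 2.08 CPM. It fell below the filter although the lowest cHC library lay above the highest cSC library. The pooled level was 14.1-fold higher in cHCs with an interval of 7.08 to 29.1, and the fit without the filter called it (adjusted p = 3.69e-08). Dll1 had 1 UMI in each class. Notch2 and Notch3 had 90 and 44 UMIs in cSCs and 0 in cHCs, at least 3.96-fold and 1.94-fold higher, and Hes5 had 1 UMI in cSCs and 2 in cHCs.

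The share of cells with a UMI was 59.2% for Hes1, 26.9% for Jag1, 23.7% for Notch1, 19.0% for Hey2 and 16.7% for Hey1 in cSCs (median depth 2626 UMIs). In cochlear macrophages (2401 UMIs) the shares were 4.13%, 2.58%, 8.79%, 0.517% and 0 of 387, which allows up to 0.775%. Jag2 was found in 16.3% of cHCs (3463 UMIs) and in 0.258% of macrophages. Of the other pathway genes, 24 were tested, 4 higher and 1 lower in cSCs, beside 23.4% higher and 20.5% lower over all genes. Their median log2 difference was 0.15 against 0.02 over all genes. Lfng had 356 UMIs in cSCs and 3 in cHCs, a ratio of 15.7 with an interval of 5.32 to 76.4. Heyl, a further HEY family gene, rose by 3.13 ± 0.50 (adjusted p = 5.03e-05) and Maml3, a coactivator of the nuclear complex, by 2.27 ± 0.51 (adjusted p = 0.0013), while Dner was lower in cSCs (−6.60 ± 0.57, adjusted p = 5.05e-08).

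Whether the SC to HC difference itself differed between the organs was tested with an interaction of organ and class, added after the data had been seen. Of the 10 genes 8 could be tested and 1 passed, against 17.0% of 9901 genes (8.81% with a larger and 8.17% with a smaller difference in the vestibule). With 8 genes tested, 1 call is about what this share gives. Hes1 differed more between classes in the vestibule, by 1.84 ± 0.54 on the log2 scale (adjusted p = 0.0174). Its mean level was 3.73 CPM in vHCs and 29.6 CPM in cHCs. Only 8 of the 153 cHCs held a Hes1 UMI, all of them inner hair cells. The call was lost without cochlear replicate 1 (1.45, adjusted p = 0.0948) and without vestibular replicate 4 (1.68, adjusted p = 0.0584). For Jag1 the difference was 2.78 ± 1.09 (adjusted p = 0.0803) and for Jag2 it was 1.16 ± 0.52 (adjusted p = 0.134).

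Between the organs, Notch1 was called higher and Hes1 lower in vSCs than in cSCs, the latter call resting on single libraries. Of the 10 genes 6 passed the filter, 1 was called higher and 1 lower in vSCs, against 29.5% of 8110 genes called, 16.2% higher and 13.3% lower. With 6 genes tested, 1 call in each direction is about what these shares give. Notch1 was 0.86 ± 0.24 higher in vSCs on the log2 scale (adjusted p = 0.00846), with all vSC libraries (142 CPM or more) above all cSC libraries (140.9 CPM or less). Hes1 was lower in vSCs, with a difference of −0.79 ± 0.23 (adjusted p = 0.0128). Here the libraries overlapped, as the highest vSC value was 274.9 CPM and the lowest cSC value 253.4 CPM, and the call was lost without cochlear replicate 5 (adjusted p = 0.0536) or vestibular replicate 5 (adjusted p = 0.0578).

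The differences of Hey1 (−0.64 ± 0.24, adjusted p = 0.0504) and Hey2 (−0.55 ± 0.22, adjusted p = 0.0759) did not pass the threshold. Hey1 passed it with RLE scaling (adjusted p = 0.0483), without the filter on low counts (adjusted p = 0.0271), and without cochlear replicate 3 (adjusted p = 0.0339) or 4 (adjusted p = 0.0499) or vestibular replicate 3 (adjusted p = 0.0488), and Hey2 without vestibular replicate 1 (adjusted p = 0.0435). Both lay between 36.1 and 109 CPM in every SC library, with overlap of the organs. Jag1 had nearly the same mean in both organs, 103 ± 41.1 CPM in vSCs and 96.3 ± 53.4 CPM in cSCs (SD, n = 4), with a difference of 0.03 ± 0.30 (adjusted p = 0.959), and its direction turned under several alternatives. Notch2 differed by −0.22 ± 0.51 (adjusted p = 0.794) and also turned.

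Ligands of HCs were found in vSCs but hardly in cSCs. Jag2 had 29 UMIs in vSCs and 14 in cSCs, 6.36-fold higher in pooled level with an interval of 3.25 to 13.02, and Dll1 had 23 UMIs in vSCs and 1 in cSCs, a ratio of 70.6 with an interval of 11.5 to 2907. Both fell below the filter, and both were called in the fit without it (adjusted p = 0.000292 and 5.67e-08). HC markers in vSCs also stood above those in cSCs, as given above, and their part in these UMIs was not tested. The 29 other pathway genes tested had a median log2 difference of 0.29 against −0.02 over all genes. Of them 10 were higher and 0 lower in vSCs, beside 16.2% higher and 13.3% lower over all genes. The largest were Dner (3.48 ± 0.45, adjusted p = 3.77e-06), Nrarp, a feedback inhibitor (1.53 ± 0.40, adjusted p = 0.00626), and Fbxw7, a ubiquitin ligase subunit that turns over the Notch intracellular domain (1.09 ± 0.23, adjusted p = 0.00108).

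Both HC ligands were higher in vHCs than in cHCs. They were the only 2 of the 10 genes to pass the filter, and both were called higher in vHCs. Of all 7685 genes tested, 30.6% were called, 18.0% higher and 12.6% lower. Dll1, with 1 UMI in cHCs, passed the filter through its vHC libraries. Hes1 and Jag1, higher in cHCs, fell below it, so the shared direction was partly set by the filter. Jag2 ranged from 76.0 to 96.9 CPM in vHCs and from 15.6 to 60.5 CPM in cHCs, without overlap, a log2 difference of 1.28 ± 0.29 (2.43-fold, adjusted p = 0.00142). Dll1 ranged from 56.9 to 75.7 CPM in vHCs, while 1 UMI was found among the 153 cHCs, in replicate 3. The ratio of pooled levels was 48.1 with an interval of 8.60 to 1905 (adjusted p = 4.79e-07).

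Some genes that are low in HCs stood higher in cHCs. Hes1 had 17 UMIs in cHCs (29.6 ± 20.9 CPM) against 30 in vHCs (3.73 ± 0.981 CPM), and Jag1 had 6 UMIs (14.0 ± 15.2 CPM) against 9 (1.25 ± 0.848 CPM; SD, n = 4). These passed only in the fit without the filter (−2.55, adjusted p = 0.000164, and −2.76, adjusted p = 0.0267). The highest cHC library for both genes was replicate 1, and without it the cHC means were 19.3 CPM for Hes1 and 6.51 CPM for Jag1. The Hes1 values of cHCs rest on 8 of the 153 cells, all of them inner hair cells. Of the other pathway genes 28 were tested, 5 higher and 2 lower in vHCs, beside 18.0% higher and 12.6% lower over all genes. Their median log2 difference was 0.10 against 0.07 over all genes. Fbxw7 was 3.60 ± 0.29 higher in vHCs (adjusted p = 2.40e-09), Dlk2 was 3.00 ± 0.43 higher (adjusted p = 1.06e-05) and Hes6, a HES family gene that opposes Hes1, was 1.87 ± 0.50 higher (adjusted p = 0.00587). The γ-secretase subunits Ncstn (−1.48 ± 0.44, adjusted p = 0.0122) and Psen2 (−1.26 ± 0.45, adjusted p = 0.0387) were lower in vHCs.

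Vestibular HCs come as flask-shaped type I cells, enclosed by a calyx terminal, and cylindrical type II cells. The 1721 type I and 219 type II HCs differed in Jag2 and not detectably in Dll1. Only these 2 of the 10 genes passed the filter, and 1 was called, against 15.5% of 7680 genes (8.36% higher and 7.19% lower in type II HCs). Jag2 was at 121.4, 122.2, 128.7 and 130.6 CPM in type II HCs and at 81.6, 65.8, 80.5 and 73.8 CPM in type I HCs. The types did not overlap, and the difference was 0.69 ± 0.17 on the log2 scale (1.61-fold higher in type II HCs, adjusted p = 0.00637). The call was lost without replicate 3 (0.62, adjusted p = 0.113) and without replicate 5 (0.65, adjusted p = 0.0537). These fits do not pair the types, which come from the same libraries. With a replicate block in the edgeR test the difference was 0.72 (adjusted p = 0.000422), and the leave-outs were not repeated with it. Dll1 was at 46.7, 48.9, 70.8 and 69.1 CPM in type II and at 71.0, 62.0, 56.8 and 79.4 CPM in type I HCs, with partial overlap of the types and a difference of −0.26 ± 0.23 (adjusted p = 0.563).

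**Figure D3:**
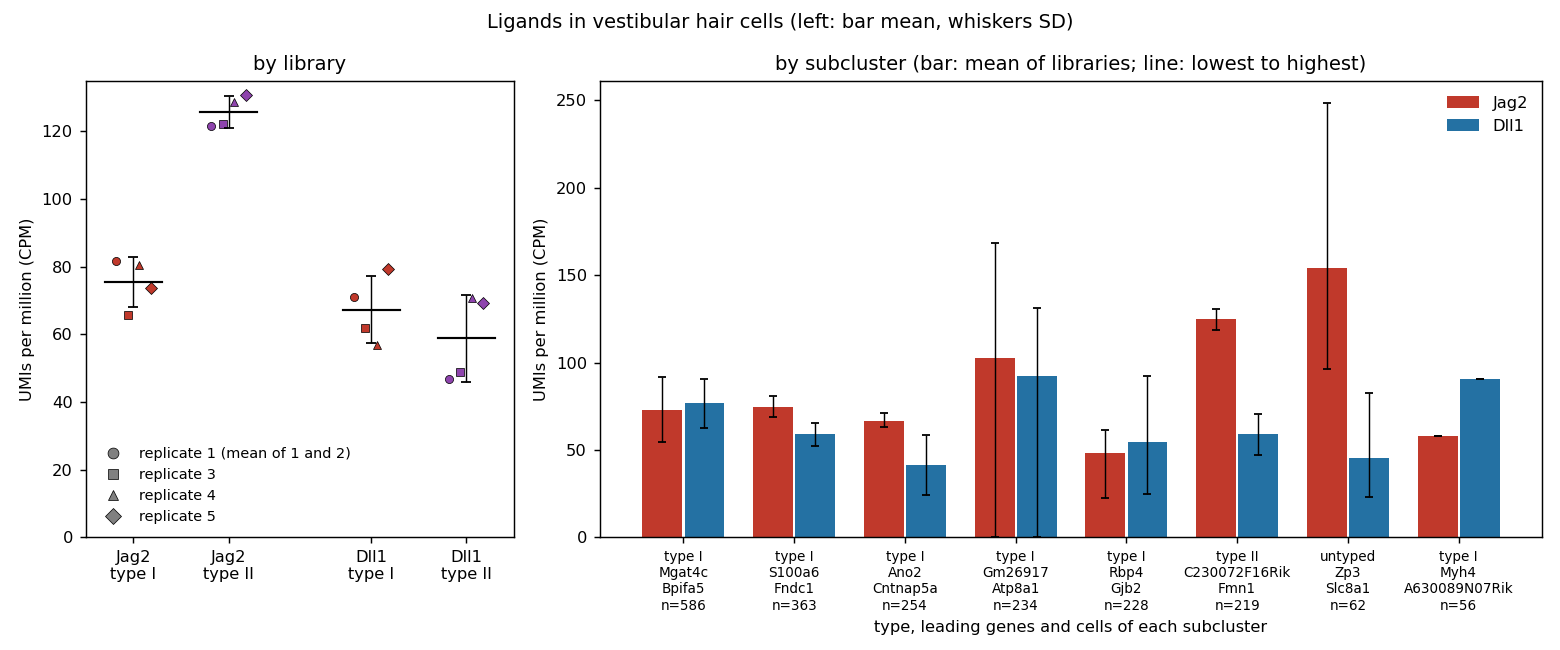
Left, Jag2 and Dll1 (y axis, CPM) in type I and type II vestibular hair cells, where each point is 1 library, bars are means and whiskers SD. Right, mean level in each subcluster of vestibular hair cells, named by type and leading genes, with lines from the lowest to the highest library. The 4 type II values of Jag2 lie above all type I values, while those of Dll1 overlap.

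Among the subclusters of vHCs, Jag2 ranged from a mean of 48.5 CPM in the type I subcluster led by Rbp4 and Gjb2 to 154 CPM in the 62 untyped cells led by Zp3. The Rbp4 subcluster had a median depth of 1461.5 UMIs and Hba-a1 among its leading genes. Dll1 ranged from 41.7 CPM in the type I subcluster led by Ano2 to 92.1 CPM in the one led by Gm26917, where single libraries ran from 0 to 131 CPM. These clusters were drawn from the same cells, and their differences were not tested.

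Of the other pathway genes, 27 were tested between the types, 3 higher and 4 lower in type II HCs. Over all genes 8.36% were higher and 7.19% lower. The median log2 difference was 0.02 against 0.00 over all genes. Mfng, another fringe gene, had 46 UMIs in type II and 2 in type I HCs, a ratio of 148 with an interval of 38.8 to 1261. Dlk2 was at 526 ± 103 CPM in type II and 70.7 ± 20.4 CPM in type I HCs (2.85 ± 0.18, adjusted p = 7.42e-11), and Heyl was 1.38 ± 0.27 higher in type II HCs (adjusted p = 0.000693). Fbxw7 was at 81.4 ± 48.8 CPM in type II and 651 ± 50.1 CPM in type I HCs (−3.37 ± 0.26, adjusted p = 1.58e-09). Dner (−1.01 ± 0.16, adjusted p = 3.42e-05) and Aph1b, a γ-secretase subunit (−0.94 ± 0.29, adjusted p = 0.0319), were also lower in type II HCs.

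The cHCs comprised 44 inner hair cells (IHCs), 33 of them from replicate 3, 79 outer hair cells (OHCs) and 30 untyped cells. IHCs were deep (median 10366 UMIs) and OHCs shallow (2671 UMIs), so the types were set side by side without a test. A Jag2 UMI was found in 12 of 44 IHCs and in 10 of 79 OHCs, or 4.55% and 6.33% of cells after thinning to 1000 UMIs. Hes1 was found in 18.2% of IHCs, or 6.82% after thinning, and in 0 of 79 OHCs, which allows up to 3.80% of OHCs with a UMI at this depth and sets no limit on cells expressing it. Hey1, Notch2 and Notch3 were found in none of the IHCs or OHCs, and Dll1 in 1 IHC.

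Within the SCs the targets did not follow one pattern across clusters. In the 688 cSCs of the cluster led by Dgkb and Eva1a, Hes1 had a mean of 537 CPM (lowest library 429, highest 681), Hey1 29.2 CPM and Hey2 20.9 CPM. In the 308 cSCs of the cluster led by Pcdh17 and Agr3, Hes1 had a mean of 204 CPM (134 to 277), Hey1 111 CPM (95.2 to 141) and Hey2 133 CPM (114 to 160). The libraries of these clusters did not overlap for any of the 3 genes, with Hes1 higher in the first and both HEY genes higher in the second. The share of all genes without overlap between these clusters was not counted, so the separation is a description only. Jag1 means were 137 and 49.9 CPM, with ranges of 83.1 to 227 and 22.9 to 90.7 CPM that overlapped. The 133 cSCs led by Rbp7 and Tectb had Jag1 at 175 CPM, but from 44.2 to 470 CPM between libraries. The Pcdh17 cluster was deeper, with a median of 6858 UMIs per cell against 2155.5 in the Dgkb cluster, and the part of depth was not tested. No test was made, since the clusters come from the same cells.

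**Figure D4:**
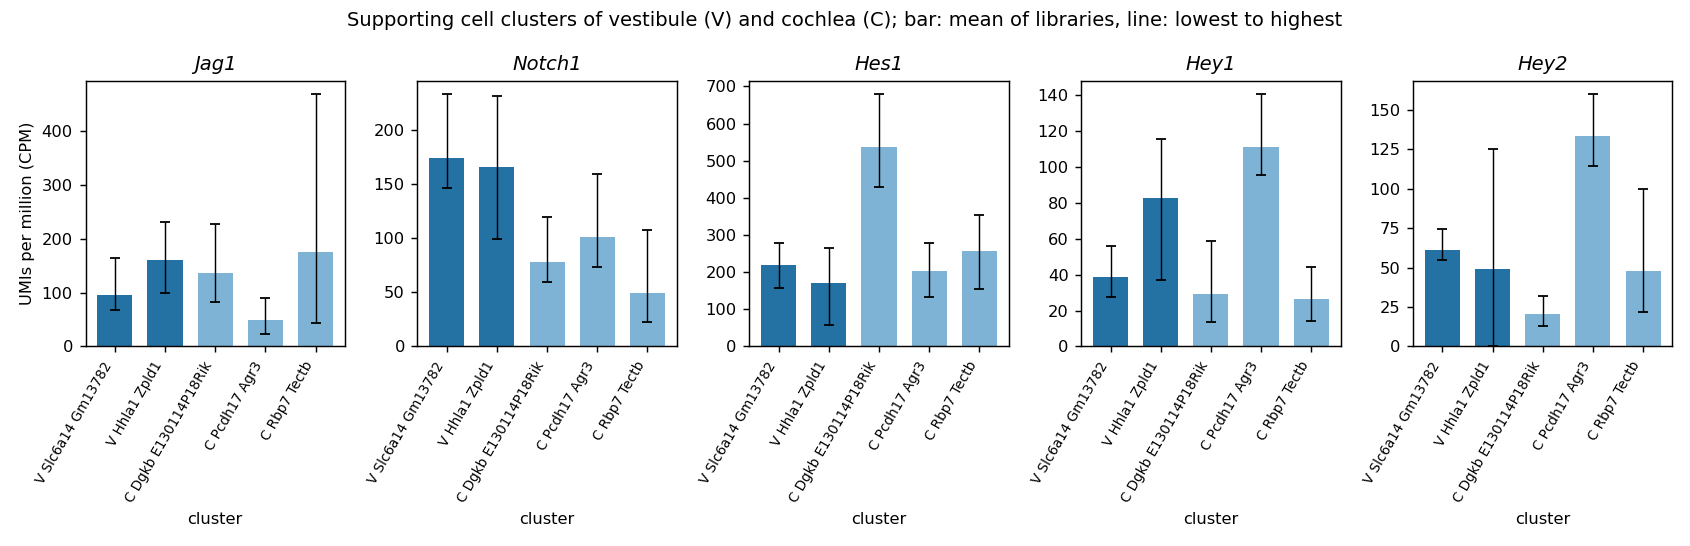
Mean level (y axis, CPM) of Jag1, Notch1, Hes1, Hey1 and Hey2 in each cluster of vestibular (V) and cochlear (C) supporting cells, named by leading genes; lines run from the lowest to the highest library. Hes1 is highest in the cochlear Dgkb cluster (mean 537 CPM), and Hey1 and Hey2 are highest in the cochlear Pcdh17 cluster (111 and 133 CPM).

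In the vestibule, 457 vSCs led by Slc6a14 and 100 led by Hhla1 and Zpld1 were less apart. Notch1 had means of 173 and 166 CPM and Hes1 of 219 and 172 CPM. Jag1 had means of 96.1 and 161 CPM and Hey1 of 38.7 and 82.4 CPM, both with overlapping libraries. In single cells of the cochlea, 205 of 1129 cSCs had UMIs of both Notch1 and Hes1, 63 had Notch1 alone, 463 Hes1 alone and 398 neither.

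**Figure D5:**
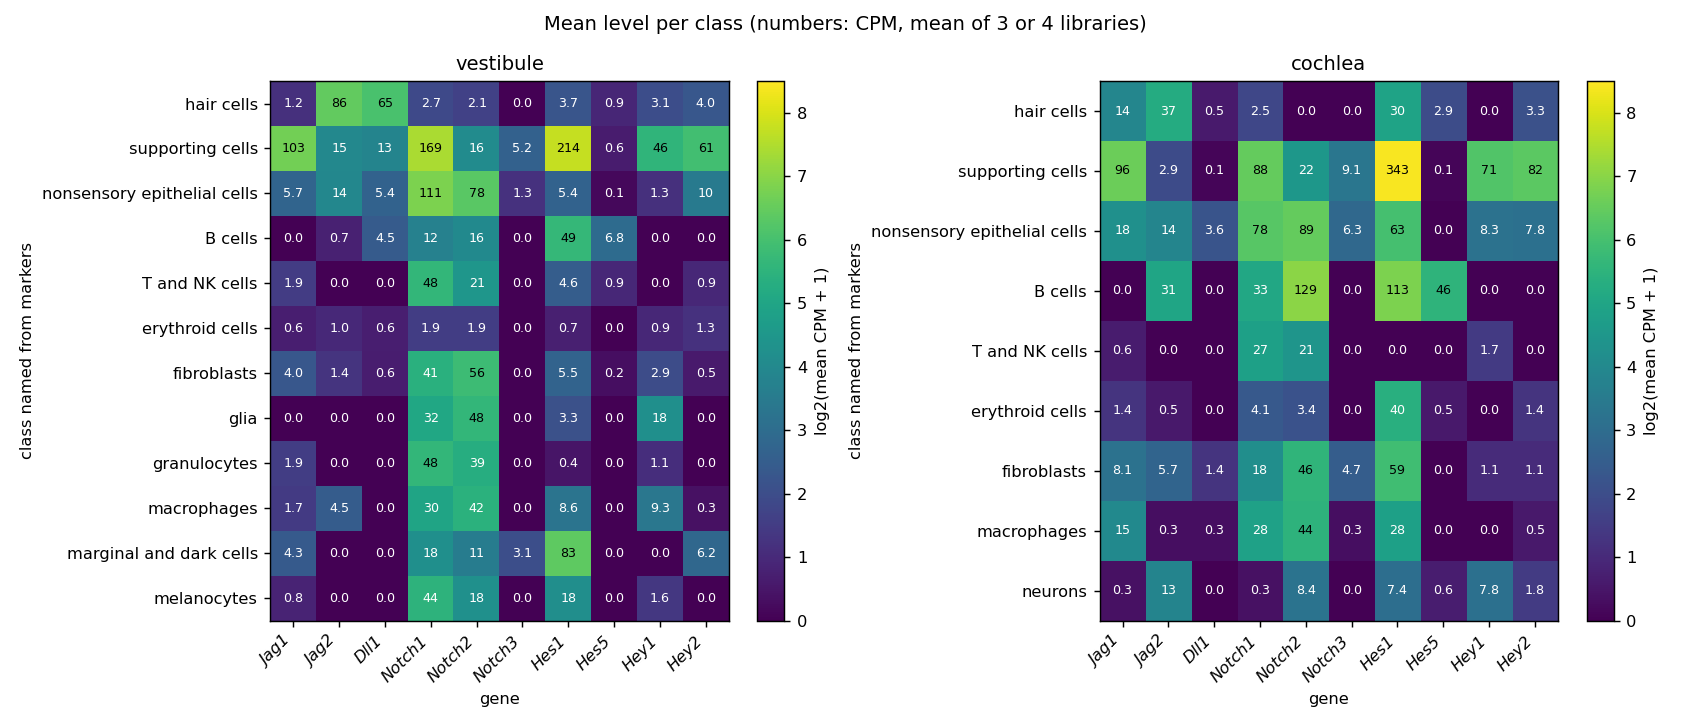
Mean level of the 10 genes (columns) in each class (rows) of the vestibule and the cochlea; colour is log2(mean CPM + 1) and the printed number is the mean CPM over 3 or 4 libraries. The ligands Jag2 and Dll1 peak in vestibular hair cells (86.4 and 65.0 CPM), Hey1 and Hey2 in supporting cells, and Notch1 and Notch2 spread over many classes.

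Across the 12 vestibular and 9 cochlear classes with 3 or more libraries, the genes fell into narrow and broad patterns. The order holds among these named classes only. A further 2947 cochlear and 1640 vestibular cells had no class name, and no cluster was named as endothelial or mural cells. In the vestibule, the libraries of vHCs for Jag2 and Dll1 did not overlap with the class next in order. Nor did those of vSCs for Jag1, Notch1, Hes1, Hey1 and Hey2. For Hes1 the next class was marginal and dark cells, with 21 UMIs. The share of all genes that separate in this way was not counted, so non-overlap here and in the cochlea is a description only. After vSCs, Notch1 was highest in vestibular nonsensory epithelial cells (111 ± 22.1 CPM, SD, n = 4). In that class the targets Hes1, Hey1, Hey2 and Hes5 had means of 5.40, 1.27, 10.2 and 0.126 CPM. In the cochlea, Hey1 and Hey2 in cSCs did not overlap with the next class, while Notch1 in cSCs (62.9 to 140.9 CPM) overlapped with nonsensory epithelial cells (51.0 to 121.4 CPM). Jag1 and Hes1 in cSCs and Jag2 in cHCs were also the highest means of the cochlea, and each overlapped with the class next in order. The mean of cochlear Dll1 was 3.57 CPM or less in each of these 9 classes.

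Notch2 was highest outside the HCs and SCs. It led in vestibular nonsensory epithelial cells (78.4 ± 35.9 CPM) and, in the cochlea, stood at 89.2 ± 34.6 CPM in nonsensory epithelial cells, 45.8 ± 14.3 CPM in fibroblasts and 44.3 ± 19.8 CPM in macrophages. Cochlear B cells had a higher mean of 129 CPM, but from 13 UMIs in 3 libraries. Hes5 was highest in B cells of both organs, with 3 UMIs in the cochlea (45.6 ± 44.7 CPM, n = 3) and 7 in the vestibule (6.77 ± 4.54 CPM, n = 4). Hes1 was at 82.9 ± 52.5 CPM in marginal and dark cells, which secrete potassium into the endolymph, from 21 UMIs.

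The genes most like each of the 10 were sought over 21 organ-by-class means of log2(CPM + 1), among 15408 genes. These points share libraries, and the correlations are descriptions only. Dll1 was most like Cfap61 (Pearson r = 0.891) and Efcab10 (0.887), Jag2 like Casc1 (0.816) and Spns2 (0.804), and Jag1 like Gal3st4 (0.869) and P2rx2 (0.849). Notch1 was most like Plin3 (0.860) and Cers2 (0.841), Notch2 like Ano6 (0.893) and Clcn5 (0.882), and Notch3 like Gna14 (0.908) and Slc2a10 (0.891). For Hey2 the genes were Gm4675 (0.911) and Otogl (0.891), the latter a SC marker used in naming, and for Hey1 they were Wnt7a (0.848) and B4galnt3 (0.804). The highest values for Hes1 were lower, 0.731 with Anapc13 and 0.727 with Rassf6, and those of Hes5, 0.939 with Gm9926 and 0.932 with Gm47828, rest on few UMIs.

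Replicate 1 was often the highest library for these genes. Of those with 20 or more UMIs in a class, it was highest for 8 of 8 in vSCs, 6 of 7 in cSCs, 3 of 6 in vHCs and 1 of 1 in cHCs. Over all genes with 20 or more UMIs it was highest for 40.7%, 43.6%, 40.3% and 33.2% in the same classes. Leaving it out moved the mean of Jag1 in vSCs from 103 to 82.8 CPM and in cSCs from 96.3 to 71.2 CPM, and moved Jag1 in cHCs from 14.0 to 6.51 CPM, Hes1 in cHCs from 29.6 to 19.3 CPM and Notch2 in cSCs from 21.8 to 12.7 CPM. Of the filtered tests of the 10 genes, leaving out replicate 1 of either organ ended that of the Hes1 interaction and no other call. The fits without the filter were not repeated without it. Replicate 1 was counted with Cell Ranger 5.0.1 and averaged with replicate 2, while the others were counted with 6.1.2. Pool and processing can therefore not be told apart in its values.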

How the data were processed

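Single cells of the cochlear and vestibular sensory epithelium were captured with the 10x Genomics 3′ v3.1 chemistry, and the authors aligned reads to mm10 and counted UMIs with Cell Ranger. The deposited values are raw counts per gene and barcode of called cells. Per the file headers, Cell Ranger 5.0.1 was used for replicates 1 and 2 of both organs and 6.1.2 for replicates 3 to 5, and the submitters' processing notes name Cell Ranger 6.1.2 and Seurat.

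Barcodes under 200 genes or under 1000 UMIs, or with 25% or more of UMIs from mitochondrial genes, were removed. Each organ was clustered in Seurat 5.3.0 (R 4.3.3) on 2000 variable genes without the Notch pathway genes, with 30 principal components at resolution 1, and hair cells again at 0.5. A class needed 3 markers with a UMI in at least 25% of cells and a log2 fold of at least 1, and clusters were left unnamed or set aside as mixed by rules made once the clusters were known. No doublet caller was run. UMIs of replicates 1 and 2 were averaged and rounded, and cells and shares are those of replicate 1. UMIs were summed per library and class of at least 5 cells and tested with the edgeR 4.0.16 quasi-likelihood test (TMM scaling, filterByExpr, Benjamini-Hochberg adjusted p below 0.05), fitted on all genes. Alternatives were RLE scaling, DESeq2 1.42.0, no filter, resolution 2 (0.8 for hair cells), clustering with the Notch genes, replicate 1 alone, thinning to 1000 UMIs, a replicate block and leaving out each replicate. Fits without a low-depth subcluster, with the set-aside cells, and the interaction of organ and class were added after the data had been seen. Within an organ the classes of one number come from the same library, and their deviations from the class means correlated above 0.1 for every number (0.115 to 0.311). In simulated data 77% to 90% of genes changed 4-fold were recovered in the 5 comparisons, and 2.23% to 4.12% of calls were false. The simulation gave every gene a fixed dispersion of 0.1, not estimated from these libraries, and made all sums independent. The recovery therefore holds for that assumed spread only.

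The 10 genes and the lists were chosen with earlier results of these data known. Of the other pathway genes, up to 3 in each direction with the largest change past the threshold were named per comparison, and for each of the 10 genes the 2 most correlated genes with at least 10 CPM in some class. Ratios of pooled counts have exact 95% intervals. Positions of genes come from GENCODE M21 (GRCm38) and promoters from RefSeq (GRCm38.p6).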

Additional observations from a re-analysis of the deposited data

Results flagged for a closer look

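Of 29 groups of 4 libraries examined, 3 had a library far from the others by Dixon's criterion, where chance gives about 1 in 20. Jag1 in vestibular SCs was at 164.9 CPM in replicate 1 and between 82.06 and 83.85 CPM in the others. Notch1 in the same class was at 230.9 CPM in replicate 1 against 142.0 to 154.6 CPM. Notch1 in type I vestibular HCs was at 4.703 CPM in replicate 3 against 1.438 to 1.846 CPM, from few UMIs. The SC to HC difference of Hes1 was larger in the vestibule than in the cochlea by 1.84 on the log2 scale (adjusted p = 0.0174, edgeR interaction). This call was lost without cochlear replicate 1 (adjusted p = 0.0948) or vestibular replicate 4 (adjusted p = 0.0584). In the same test 17.0% of 9901 genes were called, and 1 call among 8 genes is about that share.

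In some clusters without a class name, the level over all UMIs together was more than 1.5 times the highest class mean of the organ. The class values are means over libraries, so the measures differ. Dll1 was at 12.57 CPM in 236 cochlear cells led by Otor, Corin and Notum, from 47 UMIs. The highest mean of a named cochlear class was 3.571 CPM, from 2 UMIs. Notch1 was at 137.8 CPM in 114 cochlear cells led by Lmo3, Rubie and Npnt, against 88.06 CPM in cochlear SCs, where replicate 1 reached 140.9 CPM. Hes1 was at 370.0 CPM in 135 vestibular cells led by Bpifa1, Serpina7 and Cxcl5, against 214.3 CPM, and all 135 cells came from replicate 3.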

How the results depend on the processing

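Of 329 recomputed fold changes of the 10 genes, 306 kept their direction and side of the threshold, 11 passed it newly, 6 lost it and 6 turned. All 91 within the vestibule, all 60 within the cochlea and all 34 between HCs of the organs kept both. The turns were between SCs of the organs. Jag1 (0.03 as reported) was −0.0291 without the filter and −0.19 to 0.37 with a library left out, and Notch2 (−0.22 as reported) was −0.63 to 0.35 with a library left out. The losses were Hes1 between SCs, Jag2 between the HC types and Hes1 in the interaction, each as given above. The cause was not tested.

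The number of genes called between cochlear SCs and HCs was 3026 with the filter and 4577 without it, where more genes are tested. With a replicate left out, the calls between type II and type I HCs ranged from 733 (without replicate 3) to 1271, against 1194, and those of the interaction from 1072 (without cochlear replicate 3) to 1871, against 1681. With the replicate block the calls were 5899 against 5395 within the vestibule, 3418 against 3026 within the cochlea, 1678 against 1194 between HC types, 3031 against 2394 between SCs and 2251 against 2351 between HCs of the organs. The block brought Hey1 (−0.61, adjusted p = 0.0203, edgeR) and Hey2 (−0.56, adjusted p = 0.0175) between SCs past the threshold and changed no other call of the 10 genes. Between organs the libraries share only a number. Each SC sum correlated best with its own number (0.332, 0.183, 0.231 and 0.069), and among HCs replicate 5 did not (0.034 against 0.037).

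Of 40 shares, 34 left their interval once thinned. In the 153 cochlear HCs, 8 of the 10 genes had at most 6 UMIs and the other two had 17 and 26, so single UMIs move their values.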
